A study of Mus musculus with 69 samples.

Results

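The genes described here are a set of 5 linked to alternative macrophage activation in the mouse: Arg1, Retnla, Chil1, Chil3 and Chil4. Not all are specific to that programme, and Chil1 is also made by neutrophils and epithelium. They were taken as every probe whose transcript identifier on the array maps to one of these symbols, which gave 5 genes of the 17628 genes tested and 6 probes of the 41174 on the array. Retnla had 2 probes and the other genes 1 each. All 5 genes were kept, since the filter on dim probes asked for a signal well above background in the lung channel on at least 4 arrays, and each of the 6 probes had one on all 69 arrays.

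The study asked how mouse lung responded to 2 titanium dioxide nanoparticles, NRCWE-001, which is unmodified, and NRCWE-002, whose surface was modified to carry a positive charge. Female C57BL/6 mice, with no transgene named, arrived at 5 to 7 weeks of age, were kept for 1 to 3 weeks and received 1 intratracheal instillation of 18, 54 or 162 µg of a particle or of the vehicle. Lungs were taken 1 day or 28 days later. The design text gives the vehicle as 2% serum in water, and the sample titles name it water. Each of the 14 groups held 5 mice, except for the vehicle group of day 28 with 4, and each mouse had 1 array. The lung RNA carried the red dye and a commercial mouse reference RNA the green dye on every array, with no dye swap.

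Alternative activation is the programme that interleukin-4 and interleukin-13 switch on in macrophages through their shared receptor chain and the transcription factor STAT6. Its best known products in the mouse are arginase 1, which splits arginine into ornithine and urea, the resistin-like molecule RELMα, encoded by Retnla, and the chitinase-like lectins Ym1 (Chil3) and Ym2 (Chil4), which bind sugars and have no known chitinase activity. BRP-39, encoded by Chil1, is a further chitinase-like lectin and is made by macrophages, neutrophils and epithelium. In lung, Chil3 is abundant in resting alveolar macrophages, and Retnla and Chil4 are also made by airway epithelium in allergic inflammation.

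On the scale the study used, the log2 ratio of lung to reference signal, none of the 5 genes passed an adjusted p of 0.05 at any dose of either particle on either day, unless slide or scan day entered the fit as a block, which brought 1 call for Chil1. In the lung channel taken alone, a reading chosen after seeing the data, Chil1 rose between 3.24-fold and 3.42-fold 1 day after 54 or 162 µg of NRCWE-002 and 162 µg of NRCWE-001. Retnla changed with the dose of NRCWE-002 on day 1 in the same reading, a call that most fits with 1 mouse left out lost. The green signal of the reference RNA followed the red signal for these 2 genes, so that their ratios moved less than their lung signals. On day 28 Arg1, Retnla, Chil3 and Chil4 were high together in 3 of the 5 mice given 18 µg of NRCWE-002, and no test called this group.

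RefSeq promoter sequences (assembly GRCm38.p6) were at hand for Retnla, Chil1, Chil3 and Chil4. Those of Retnla, Chil3 and Chil4 are shown because they hold STAT-type motifs, and because Chil3 and Chil4 varied together among mice and lie near each other on the minus strand of chromosome 3. Each is the 250 bases before the gene's start, 5′ to 3′ on the gene's strand, and capitals mark TTC and GAA parted by 3 or 4 bases of any kind, which read the same on both strands, and TATAAA.
Retnla, chr16:48842359-48842608, plus strand: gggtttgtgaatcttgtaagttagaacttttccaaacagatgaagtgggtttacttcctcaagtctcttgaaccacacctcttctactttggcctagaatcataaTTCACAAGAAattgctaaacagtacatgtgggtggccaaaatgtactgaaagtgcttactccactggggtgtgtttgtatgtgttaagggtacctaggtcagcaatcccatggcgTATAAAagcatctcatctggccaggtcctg
Chil3, chr3:106167565-106167814, minus strand: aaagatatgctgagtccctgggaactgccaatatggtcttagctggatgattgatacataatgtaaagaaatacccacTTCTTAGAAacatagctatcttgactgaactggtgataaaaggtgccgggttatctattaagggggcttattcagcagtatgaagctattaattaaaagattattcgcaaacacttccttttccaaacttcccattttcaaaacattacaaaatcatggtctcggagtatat
Chil4, chr3:106219480-106219729, minus strand: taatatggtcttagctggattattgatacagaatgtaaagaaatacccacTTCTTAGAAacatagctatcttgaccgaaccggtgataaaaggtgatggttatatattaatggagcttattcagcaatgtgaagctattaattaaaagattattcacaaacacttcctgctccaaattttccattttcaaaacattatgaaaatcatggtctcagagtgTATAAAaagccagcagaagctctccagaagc

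The form with 4 bases between, which STAT6 prefers, lay at positions -145 to -136 from the start of Retnla and is held by 5.85% of the 32851 promoters of this length. The form with 3 bases between lay at -172 to -164 for Chil3 and at -200 to -192 for Chil4, and 7.02% of all promoters hold it. TATAAA, searched after the sequences were seen, stood at -30 to -25 for Retnla and at -31 to -26 for Chil4 and is found in 12.4% of promoters. The promoter of Chil1 (chr1:134181906-134182155, plus strand) held none of these motifs. The Chil3 and Chil4 promoters matched at 201 of 223 aligned positions (90.1%). The transcripts of Chil3 and Chil4 are also close copies, and whether the probe of one bound the transcript of the other was not tested.

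Lung tissue was checked by Sftpc, Sftpb, Scgb1a1, Ager and Cldn18, which were well above background on all 69 arrays and lay between the 95.3rd and the 100th percentile of lung signal. Between 61.4% and 87.8% of spots were well above background in the lung channel, and no spot was saturated. The number of arrays limits the precision. Each RNA came from a small piece of frozen lung. In such bulk RNA fewer cells of a type and less RNA per cell cannot be told apart.

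Against the vehicle mice of the same day, 0 of the 5 genes were called on the ratio scale in any of the 12 dose groups by limma. Of the 60 tests, 7 had an unadjusted p under 0.05, and 39 of the 60 estimates were above 0. Among all 17628 genes, 511 to 1576 had such a p in a single dose group. For NRCWE-001 the share of all tested genes called was 0%, 0% and 0.579% at 18, 54 and 162 µg on day 1, and 0.193%, 0% and 0.0454% on day 28. With NRCWE-002 it was 0%, 0.0624% and 0.596% on day 1, then 0%, 0% and 0.00567%. The median log2 change of the 5 genes ran from -0.15 at 162 µg of NRCWE-002 to 1.15 at 18 µg of NRCWE-002, both on day 28. The median over all genes stayed between -0.01 and 0.01 in the 12 groups, which the normalisation brings about. A median of 5 genes varies more than that of all genes. Those of other short lists ranged as far, up to 1.57 for 7 goblet cell markers and 1.76 for 5 cardiac muscle markers. The comparisons of 1 day share their vehicle mice.

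The overall F test for dose, run for each particle on each day, also called 0 of the 5 genes on the ratio scale, except that Chil1 was called for NRCWE-002 on day 1 with slide as a fixed block (adjusted p = 0.0449) or scan day as a block (adjusted p = 0.0337). Among all genes the share called was 0.698% on day 1 and 0.477% on day 28 for NRCWE-001, with 0.823% and 0% in the NRCWE-002 groups. Of the 20 such tests of these genes, 6 were under 0.05 before adjustment, and the lowest limma adjusted p was 0.236. The share of all genes before adjustment is not given here for the F test.

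**Figure D1:**
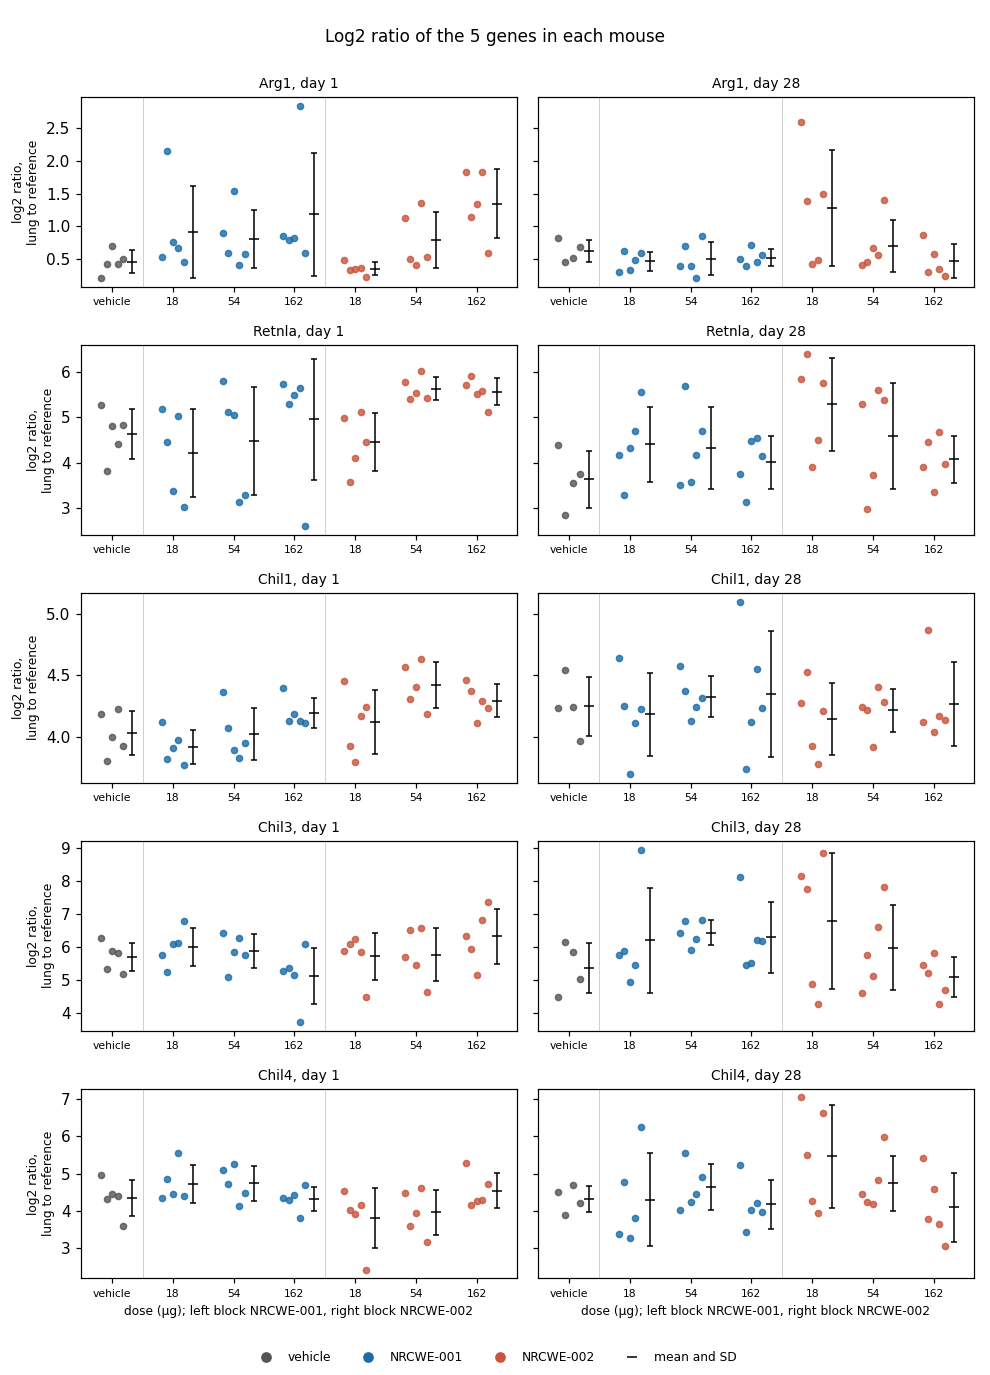
Log2 ratio of lung to reference signal (y axis) of each gene in each mouse by dose in µg (x axis), with day 1 on the left and day 28 on the right. Points are mice, and bars show the mean and SD of a group. Arg1 reached 2.84 in 1 mouse at 162 µg of NRCWE-001 on day 1, and on day 28 Chil3 lay at 7.75 or above in 3 of 5 mice at 18 µg of NRCWE-002.

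The lung channel alone gave another count. Of the 60 tests on normalised lung signal, 3 were called and 15 had an unadjusted p under 0.05, and all 3 calls were Chil1. Among all 17628 genes, 552 to 2380 had such a p in a single dose group. For NRCWE-001 the share of all genes called in this channel was 0%, 0.0397% and 1.42% at 18, 54 and 162 µg on day 1, and 0.425%, 0.00567% and 0.0851% on day 28. With NRCWE-002 it was 0%, 0.346% and 2.24% on day 1, then 0%, 0% and 0.0227%. The F test for dose called Chil1 with both particles and Retnla with NRCWE-002 on day 1, beside 1.62% of all genes after NRCWE-001 and 2.39% after NRCWE-002. On day 28 it called none of the 5, beside 1.48% and 0% of all genes in that order, and with slide as a random block it called Chil1 after NRCWE-001 (adjusted p = 0.0373).

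Chil1 gave the only calls against single doses. Its lung signal, in log2 units, was 13.83, 13.55, 13.59, 13.54 and 13.38 in the vehicle mice of day 1. At 162 µg of NRCWE-001 it was 15.76, 15.34, 15.80, 15.62 and 13.85. At 54 µg of NRCWE-002 it was 15.49, 15.44, 15.10, 15.57 and 15.00, and at 162 µg it was 15.39, 15.57, 15.66, 15.43 and 14.72. Every mouse of these 3 groups lay above every vehicle mouse, although replicate 5 of the NRCWE-001 group did so by little. Of all genes, 2.21% were separated in that way at 162 µg of NRCWE-001, 1.47% at 54 µg of NRCWE-002 and 4.03% at 162 µg of NRCWE-002.

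The rise of Chil1 in lung signal was 1.70 ± 0.32 (SE) on the log2 scale at 162 µg of NRCWE-001 (adjusted p = 0.0016), 1.74 ± 0.32 at 54 µg of NRCWE-002 (adjusted p = 0.0024) and 1.78 ± 0.32 at 162 µg of NRCWE-002 (adjusted p = 0.00049), all by limma with 5 mice a group. These are 3.24-fold, 3.34-fold and 3.42-fold. With median scaling of the arrays the call at 54 µg of NRCWE-002 was lost (1.54, adjusted p = 0.178). The 54 µg group of NRCWE-001 was split, with 14.92, 15.25 and 15.29 in 3 mice and 13.57 and 13.78 in the others, and its difference of 0.99 did not pass the test (adjusted p = 0.351), although it did with slide as a random block (adjusted p = 0.035). At 18 µg the differences were 0.11 with NRCWE-001 and 0.14 with NRCWE-002. On day 28 the 162 µg groups were split as well, since 3 of 5 mice given NRCWE-001 lay at 15.34 to 15.48 and the others at 13.69 and 13.70, and the differences of 1.04 and 0.72 did not pass the test (adjusted p = 0.209 and 0.675). Leaving out replicate 2 or 3 of that NRCWE-001 group brought its difference to 1.30 with an adjusted p of 0.039, while leaving out replicate 1, 4 or 5 brought it to 0.85 to 0.89 with an adjusted p of up to 0.504.

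The reference channel of the same arrays moved in step with the lung channel for Chil1. Its log2 signal was 9.55 ± 0.17 (SD, n = 5) in the vehicle mice of day 1, 11.08 ± 0.77 at 162 µg of NRCWE-001, 10.90 ± 0.16 at 54 µg of NRCWE-002 and 11.06 ± 0.39 at 162 µg of NRCWE-002, although every array carried the same reference RNA by design. At 162 µg on day 1 the reference channel called 0.017% of all genes after NRCWE-001 (3 genes: Chil1, Lcn2 and Saa2) and 0.0113% after NRCWE-002 (2 genes: Chil1 and Lrg1), and Chil1 was 1.53 and 1.51 higher there. The raw reference signal of Chil1 was 1.13% to 6.17% of the raw lung signal of the same spot. On the ratio scale Chil1 accordingly differed from the vehicle by 0.16, 0.39 and 0.26 in these groups, with limma adjusted p-values of 0.693 or more. With slide or scan day as a block the value at 54 µg of NRCWE-002 was called (0.40 to 0.42, adjusted p at most 0.0364). What raised the green signal was not tested.

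Over the 69 arrays the correlation of red with green log2 signal was 0.94 for the Chil1 probe and 0.97 for both Retnla probes. It was 0.13 for Arg1, 0.20 for Chil4 and -0.61 for Chil3, beside a median of 0.48 over the 36452 probes kept. The 5th and 95th percentiles over those probes were 0.04 and 0.91. Among the 316 probes at least as bright as that of Chil1 the median was 0.24 and the 95th percentile 0.68. Both channels of a point share an array and its normalisation, and these values are descriptions.

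**Figure D2:**
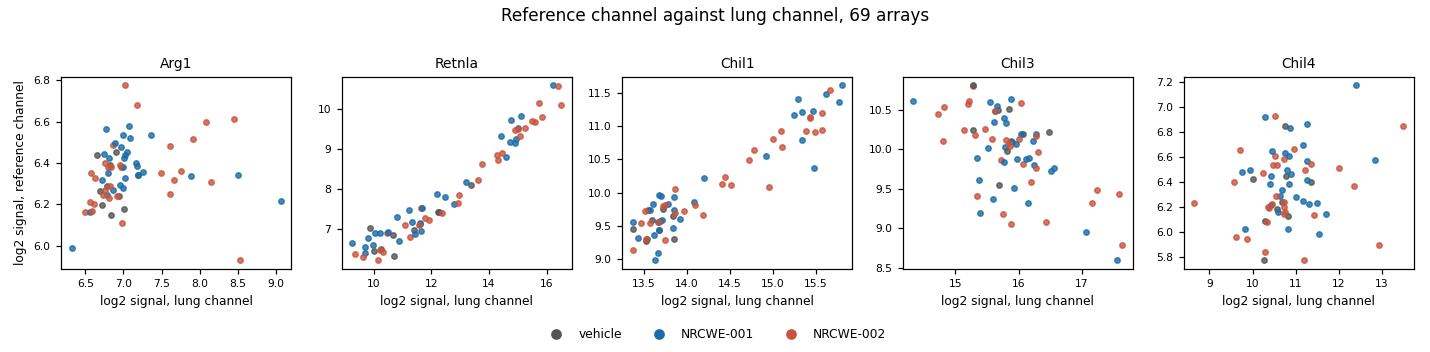
Log2 signal of the reference channel (y axis) against that of the lung channel (x axis) for each gene, 1 point per array, coloured by particle. Chil1 (r = 0.94) and Retnla (r = 0.97) rise along a line, Chil3 falls (r = -0.61), and Arg1 and Chil4 stay near the floor of the reference channel.

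Retnla encodes a cysteine-rich protein secreted by macrophages and airway epithelium. Its lung signal on day 1 was 13.36, 10.65, 12.24, 11.39 and 12.25 in the vehicle mice. It was 15.47, 14.88, 14.44, 15.82 and 14.28 at 54 µg of NRCWE-002, and 15.24, 15.58, 15.01, 15.72 and 13.74 at 162 µg. Both NRCWE-002 groups lay above all vehicle mice, as held for 1.47% and 4.03% of all genes. The summed goblet cell markers were 689 to 2971 (median 741) in the vehicle mice, 857 to 6653 (median 4391) at 54 µg and 1249 to 5977 (median 5626) at 162 µg. Medians of the summed cardiac muscle markers were 2170, 11764 and 7153 in the same order, and those of fat markers 3361, 3023 and 2679. The summed monocyte and interstitial macrophage markers of both dose groups lay above all vehicle mice. The part of any of these markers in the Retnla signal was not tested. The differences of 3.00 ± 1.05 and 3.08 ± 1.05 (SE) did not pass the test at either dose (adjusted p = 0.242 and 0.112), while the F test over the 3 doses called the gene (adjusted p = 0.0482). With slide as a block the 54 µg difference was called (4.27 as a fixed block, adjusted p = 0.038, and 3.87 as a random block, adjusted p = 0.0193). The dose call was lost with median scaling and with slide as a fixed block (adjusted p = 0.0582 for both), and in 17 of the 20 fits that left out 1 mouse, with an adjusted p of up to 0.104.

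After NRCWE-001 the same gene split the group. At 162 µg the lung signals were 14.88, 15.11, 15.00 and 16.23, with 9.25 in replicate 5, the lowest value of Retnla in any mouse. That mouse also had the lowest Chil1 of its group. The difference was 2.12 (adjusted p = 0.458), and it ranged from 1.58 without replicate 4 (adjusted p = 1.00) to 3.33 without replicate 5 (adjusted p = 0.0499). At 54 µg 3 mice lay at 14.43 to 14.75 and the others at 10.05 and 10.21, and these others were the mice with low Chil1 in that group. Over the 35 arrays of day 1 the lung signals of Retnla and Chil1 correlated with r = 0.88, and over the 34 of day 28 with r = 0.27.

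The log2 ratio of Retnla was 5.27, 3.81, 4.81, 4.41 and 4.82 in the vehicle mice of day 1, and 5.77, 5.41, 5.53, 6.01 and 5.42 at 54 µg of NRCWE-002. These groups did not overlap, as held for 1.7% of all genes at this dose, and the difference of 1.00 was not called. The mean reference signal of Retnla lay 2.00 above that of the vehicle mice at that dose and 2.15 above it at 162 µg, and neither difference was called. The raw reference signal was 0.751% to 3.52% of the raw lung signal. Both Retnla probes gave the same picture at 18 µg of NRCWE-002 on day 28, with ratio differences of 1.69 and 1.60.

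**Figure D3:**
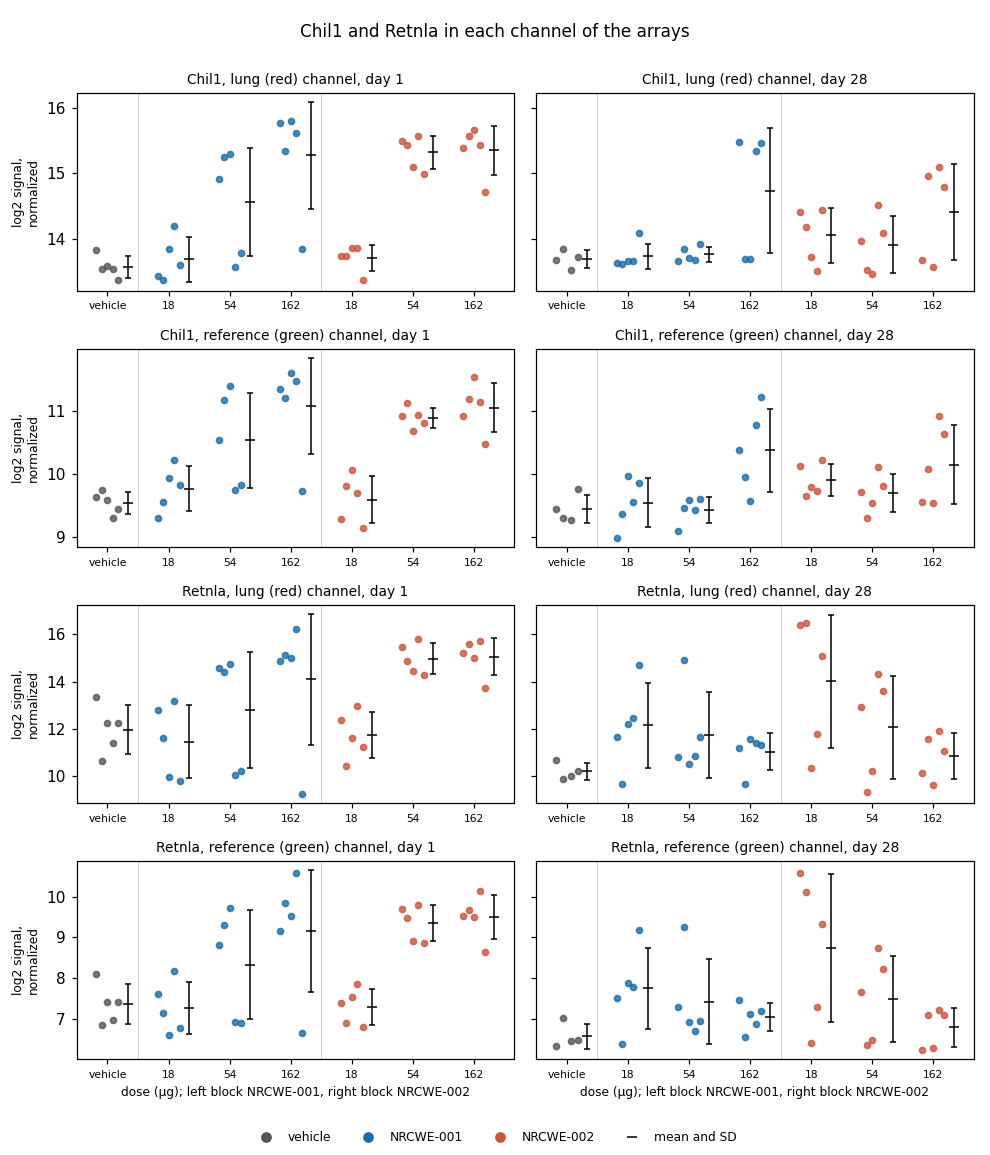
Normalised log2 signal (y axis) of Chil1 and Retnla in the lung channel and in the reference channel by dose in µg (x axis), with day 1 on the left and day 28 on the right. Points are mice, and bars show the mean and SD. On day 1 both channels of Chil1 are higher at 54 and 162 µg of NRCWE-002 than in the vehicle mice, by 1.74 and 1.78 in the lung channel.

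Arg1, the cytosolic arginase, gave a dim spot, with raw lung signals of 32.5 to 676 and a reference signal well above background on only 23 of 69 arrays. Its lung signal in the vehicle mice of day 1 was 6.65, 6.69, 6.94, 6.82 and 6.79. It was 7.19, 7.18, 7.36, 9.06 and 7.05 at 162 µg of NRCWE-001 and 8.14, 7.49, 7.66, 8.45 and 6.97 at 162 µg of NRCWE-002. Both groups lay above all vehicle mice, as held for 2.21% of all genes after NRCWE-001 and 4.03% after NRCWE-002. The SD of the vehicle mice was 0.11. The differences were 0.79 ± 0.29 (SE, adjusted p = 0.195) and 0.96 ± 0.29 (adjusted p = 0.0636), and neither passed the test. Without replicate 5 of the NRCWE-002 group the difference was 1.15 with an adjusted p of 0.0177, and without replicate 4 of the NRCWE-001 group that difference was 0.41.

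In log2 ratio the same groups differed from the vehicle by 0.73 ± 0.30 (adjusted p = 0.471) and 0.89 ± 0.30 (adjusted p = 0.192). Replicate 4 of NRCWE-001 at 162 µg stood apart with a ratio of 2.84 against 0.59 to 0.85 in the other mice, and that mouse had the lowest Chil3 ratio of all, 3.73. Without it the ratio difference was 0.31. On day 28 no 162 µg group was above the vehicle mean (differences of -0.10 and -0.15). The 162 µg effect of NRCWE-002 on Arg1 was lower on day 28 than on day 1 by an estimate of -1.04 (95% interval -1.91 to -0.17), which did not pass the test (adjusted p = 0.657).

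**Figure D4:**
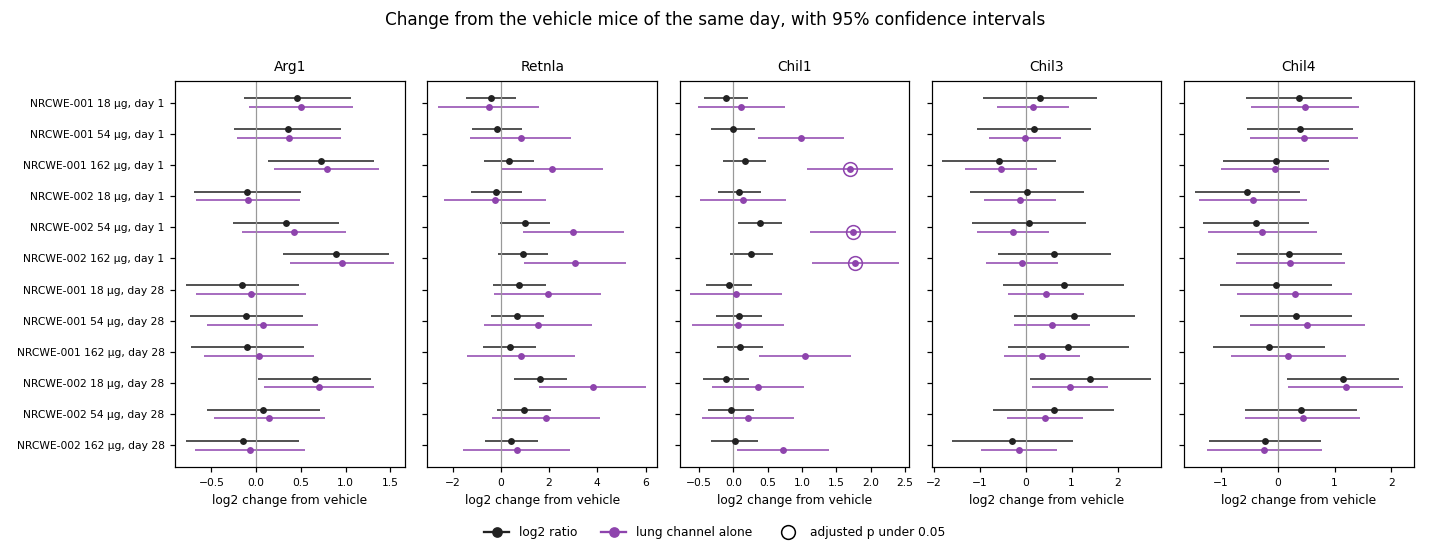
Log2 change from the vehicle mice of the same day (x axis) with 95% confidence intervals for each gene and dose group (y axis), for the ratio and for the lung channel alone. Rings mark an adjusted p under 0.05, and only 3 lung-channel values of Chil1 carry one, at 1.70, 1.74 and 1.78.

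Chil3 and Chil4 were not called at any dose in either reading. On day 1 the ratio differences from the vehicle ran from -0.57 to 0.63 for Chil3 and from -0.53 to 0.40 for Chil4. The day 1 group means of the Chil3 ratio ran from 5.12 at 162 µg of NRCWE-001 to 6.32 at 162 µg of NRCWE-002, beside 5.69 ± 0.44 (SD, n = 5) in the vehicle mice. Those of Chil4 ran from 3.81 at 18 µg of NRCWE-002 to 4.74 at 54 µg of NRCWE-001, beside 4.34 ± 0.49. Chil3 gave raw lung signals of 28736 to 236167, already high in mice given the vehicle. Its reference signal moved opposite to its lung signal, and on day 28 the ratio spanned 4.28 to 8.95 while the lung signal spanned 14.73 to 17.64.

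On day 28 single mice stood far above the rest. At 18 µg of NRCWE-002 the lung signals of Chil3 were 17.59, 17.24, 15.13, 14.82 and 17.64, beside 15.28, 15.69, 15.82 and 15.27 in the vehicle mice. Those of Chil4 were 12.94, 12.01, 10.34, 9.87 and 13.49, beside 10.27, 10.75, 10.81 and 10.29. Replicates 1, 2 and 5 lay above every vehicle mouse for both genes, and replicates 3 and 4 below every vehicle mouse for Chil3. The differences of 0.97 ± 0.42 for Chil3 and 1.20 ± 0.50 for Chil4 (SE, n = 5 against 4) did not pass the test (adjusted p = 0.92 for both).

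The same 3 mice led for Retnla and Arg1. Retnla lung signals were 16.41, 16.50, 10.33, 11.78 and 15.07 in that group, beside 10.71, 9.88, 10.02 and 10.24 in the vehicle mice, a difference of 3.81 ± 1.11 (adjusted p = 0.6). Those of Arg1 were 8.53, 7.91, 6.59, 6.76 and 8.08, beside 7.00, 6.90, 6.72 and 6.83. In log2 ratio 4 of the 5 genes had an unadjusted p under 0.05 in this group, Retnla at 1.64 ± 0.55, Chil3 at 1.41 ± 0.66, Chil4 at 1.15 ± 0.49 and Arg1 at 0.65 ± 0.32, and the adjusted p-values were 0.72 to 0.813. Of all 17628 genes, 1071 had an unadjusted p under 0.05 in this comparison. The values of higher doses were lower, since at 162 µg of NRCWE-002 the ratio differences were 0.44, -0.29, -0.23 and -0.15 in the same order.

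Markers of other cells varied in these mice too. The summed lung signal of 7 goblet cell markers was 62251, 102682, 2221, 2100 and 17979 in replicates 1 to 5 at 18 µg of NRCWE-002 on day 28, beside 681 to 3803 in the vehicle mice, and all 7 were well above background in each of the 5 mice. The fat cell sum of 6 markers was 15157, 14159, 4038, 73187 and 4071, beside 2513 to 7196. The cardiac muscle sum of 5 markers was 11676, 39748, 15861, 23698 and 3970, beside 2055 to 15220. The alveolar macrophage sum of 9 markers was 17232, 13384, 9422, 31752 and 16375, beside 10208 to 13199. Its highest value, 31752, was that of replicate 4, the mouse with the highest fat sum, and what share of it came from fat was not tested. The 3 mice with the highest goblet sums of this group were the 3 with high Chil3. High goblet sums were not confined to this group on day 28. They reached 38459 at 18 µg and 27092 at 54 µg of NRCWE-001 and 45972 at 54 µg of NRCWE-002. At 162 µg they reached 4468 with NRCWE-001 and 6009 with NRCWE-002. The part of any of these marker lists in the result was not tested.

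Outside that group, the highest lung signals of Chil3 on day 28 were 17.56 in replicate 5 at 18 µg of NRCWE-001, 17.15 in replicate 5 at 54 µg of NRCWE-002 and 17.07 in replicate 1 at 162 µg of NRCWE-001, and each of these mice was also the highest of its group for Chil4. Over the 34 arrays of day 28 the lung signals of the 2 genes correlated with r = 0.96, and over the 35 of day 1 with r = 0.68. At 54 µg of NRCWE-001 on day 28 every Chil4 lung signal, 10.84 to 11.54, lay above the vehicle mice, as held for 1.19% of all genes, with a difference of 0.52 that was not called.

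**Figure D5:**
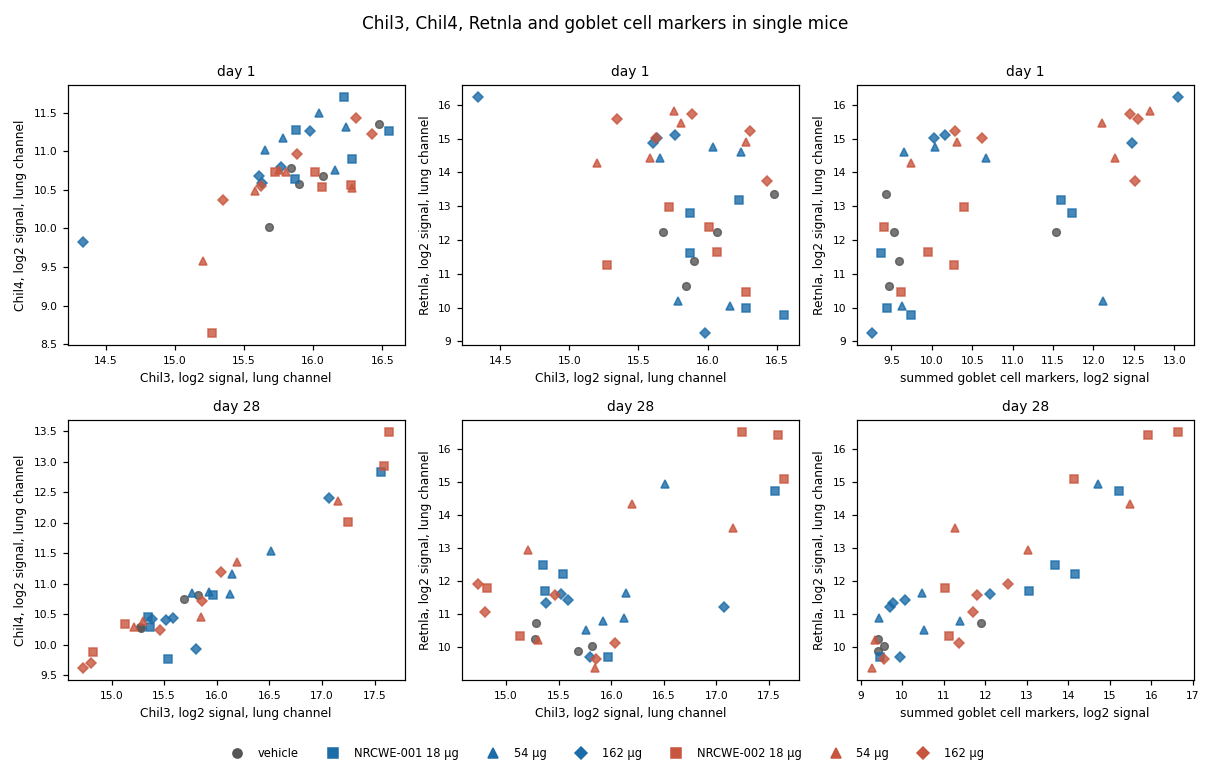
Lung channel signals in log2 units of Chil4 against Chil3, Retnla against Chil3 and Retnla against the summed goblet cell markers, 1 point per mouse, with day 1 above and day 28 below. On day 28 Chil3 and Chil4 lie along a line (r = 0.96), and 3 mice at 18 µg of NRCWE-002 and 1 at 18 µg of NRCWE-001 lie at its upper end.

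The order of the 7 groups of a day was compared with the spread of the mice. Neighbours among 7 sorted means lie close by construction. The comparison therefore bears on their order only and cannot tell whether a dose group differs from the vehicle. Neighbouring group means of Arg1, Retnla, Chil3 and Chil4 never lay further apart than the larger of their 2 SDs, on either day and in either reading. For Chil1 this held on the ratio scale, where its 7 group means spanned 0.50 on day 1 and 0.20 on day 28. For its lung signal on day 1, however, 1 of the 6 neighbouring pairs of means was further apart than that, within a span of 1.78 from the vehicle mice to 162 µg of NRCWE-002. The widest span of group means was that of Retnla, 3.59 on day 1 and 3.81 on day 28 in lung signal.

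The 2 particles were compared at matched doses as the mean over the 3 doses, 2 comparisons for each reading. On the ratio scale 0 of the 5 genes were called, beside 0.125% of all genes on day 1 and 4.75% on day 28. An unadjusted p under 0.05 was found in 2 of the 10 tests, and in 1290 and 3917 of all 17628 genes on day 1 and day 28. On day 1 the NRCWE-002 mean was higher by 0.67 for Retnla (95% interval 0.07 to 1.27, adjusted p = 0.645) and by 0.23 for Chil1 (0.05 to 0.42, adjusted p = 0.543). The intervals of Arg1 (-0.48 to 0.21), Chil3 (-0.45 to 0.98) and Chil4 (-1.02 to 0.05) included 0. On day 28 the Chil1 difference was -0.08 (-0.26 to 0.11), and with median centring it was -0.44 and was called (adjusted p = 0.0148). Lung signal alone gave 0 of the 5 called and 0 of 10 under 0.05 before adjustment, beside 0.947% and 1.04% of all genes called, and the day 1 difference of Retnla was 1.13 (-0.08 to 2.35) and that of Chil1 0.29 (-0.08 to 0.65).

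The days were compared through the 162 µg effects and the vehicle mice. On the ratio scale the difference of the 162 µg effect between days was called for 0 of the 5 genes and for 0% of all genes with either particle. An unadjusted p under 0.05 was found in 1 of the 10 tests. It was found in 766 of all 17628 genes with NRCWE-001 and in 1181 with NRCWE-002. From lung signal the difference between days was called for 0 of the 5, beside 0% of all genes with NRCWE-001 and 0.00567% with NRCWE-002. Before adjustment 2 of 10 tests were under 0.05, as were 1446 and 1401 of all 17628 genes in that order. The estimates for Chil1 were -0.66 (95% interval -1.58 to 0.26) and -1.05 (-1.97 to -0.13, adjusted p = 0.555). Between the vehicle mice of the 2 days 0 of the 5 genes were called in either reading, as for 0% of all genes, and none had an unadjusted p under 0.05. The largest of these vehicle differences was that of Retnla, -0.99 (-2.09 to 0.11) on the ratio scale and -1.77 (-3.995 to 0.46) in lung signal.

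Other genes of the programme were read from lists drawn up by role. Each ratio call of a list gene was lost in 2 to 9 of the 10 fits that left out 1 mouse. Of 23 tested genes of alternative activation outside the 5, 1 rose on the ratio scale in 1 of the 12 dose groups and none fell. This was Ccl17, a chemokine for type 2 helper cells, at 162 µg of NRCWE-002 on day 1 (1.75 ± 0.43 SE, limma adjusted p = 0.0325), and the call was lost in 8 of 10 fits with 1 mouse left out. The mannose receptor gene Mrc1 ranged from -0.55 to 0.06 with no call. Read from lung signal, Ccl17 (2.01), the eosinophil chemokine gene Ccl24 (1.67) and the lectin gene Mgl2 (0.76) were called higher at that dose, Trem2 (1.60) at 162 µg of NRCWE-001 on day 28, and Pparg (-0.51) was called lower at 162 µg of NRCWE-001 on day 1. Of these lung-channel calls only that of Ccl17 held in every fit with 1 mouse left out, and the others were lost in 7 or 8 fits. The median of the list on the ratio scale ran from -0.03 to 0.33, and its highest value fell at 18 µg of NRCWE-002 on day 28, the group where the 5 genes also had their highest median. That peak was not particular to alternative activation. The goblet cell (1.57), fat (1.56), chitinase and resistin-like (0.18) and eosinophil (0.08) lists had their highest ratio median there too, and the remaining lists had theirs in other groups.

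Of 18 tested type 2 cytokines, receptors and signalling genes none was called on the ratio scale by limma, with 17 of 216 tests under 0.05 before adjustment. Il33, the epithelial alarmin, ranged from -0.23 to 0.81 and was called only in the lung channel at 162 µg of NRCWE-002 on day 1 (0.85, adjusted p = 0.0399, lost in 8 of 10 fits with 1 mouse left out). The receptor chain gene Il4ra ranged from -0.23 to 0.25 in ratio. Of 20 tested genes of arginine and polyamine metabolism none was called in ratio, with 26 of 240 tests under 0.05 before adjustment. Arg2, the mitochondrial arginase, was called in the lung channel at 162 µg of both particles on day 1 (0.82 and 0.84), as was Srm, spermidine synthase, for NRCWE-001 (0.57) and Aldh18a1 for NRCWE-002 (0.39). With 1 mouse left out, the call of Srm held in all 10 fits, those of Arg2 were lost in 7 and 4, and that of Aldh18a1 in 3. Nos2, the arginine-consuming enzyme of classical activation, ranged from -0.14 to 0.04 in ratio, and was well above background in the lung channel on only 40 of 69 arrays. Of 9 tested chitinase and resistin-like relatives, Retnlb rose in ratio at 162 µg of NRCWE-001 on day 1 (0.50, adjusted p = 0.0438, lost in 8 of 10 fits with 1 mouse left out), and none was called in the lung channel. Retnlb was well above background in that channel on only 27 of 69 arrays.

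Of 15 tested genes of classical activation, Il1b rose in ratio at 162 µg on day 1, by 1.62 with the unmodified and 1.67 with the charged particle, and the lung channel added Il6 for NRCWE-002 (1.08, lost in 8 of 10 fits with 1 mouse left out). Il6 was well above background there on only 38 of 69 arrays. Among markers of macrophages and other cells at 162 µg on day 1, Cd14 of 9 monocyte and interstitial macrophage markers rose in ratio with both particles (1.33 and 1.58), calls lost in 9 and 2 of 10 such fits. Of 9 alveolar macrophage markers, Ear1 (-1.30) and Siglecf (-0.92) fell with NRCWE-001, and of 9 neutrophil markers Csf3r (0.80) and Cxcr2 (0.69) rose with it. These calls were lost in 8, 8, 7 and 5 of 10 such fits, and Csf3r was -0.032 with processed signals. The summed 9 alveolar macrophage markers of that group had a median of 12208, beside 11843 in the vehicle mice. Such a sum is weighted to the brightest markers, so it cannot show whether the other markers held steady. None of 5 eosinophil, 2 club cell, 7 goblet cell, 6 alveolar type 2, 6 fat or 5 cardiac muscle markers was called in ratio at any dose, with 5 of 60, 1 of 24, 10 of 84, 3 of 72, 9 of 72 and 6 of 60 tests under 0.05 before adjustment in that order. By lung signal Siglecf, Ear1 and Cidec were lower, and Mmp9, Ly6c2, Car4 and Sftpd were higher, in at least 1 group of day 1, and each of these calls was lost in 1 to 9 of 10 fits with 1 mouse left out. The summed neutrophil markers lay at 13857 to 25770 in the vehicle mice of day 1, at 20196 to 68903 at 162 µg of NRCWE-001, at 17313 to 47439 at 162 µg of NRCWE-002 and at 18857 to 44486 at 54 µg of NRCWE-002, the 3 groups in which Chil1 rose. All 3 overlapped the vehicle mice. The summed monocyte and interstitial macrophage markers lay at 34015 to 40730, 35457 to 47881 and 34521 to 41294 in the same order, all above the 25472 to 29800 of the vehicle mice. On day 28 the monocyte and interstitial macrophage sum had a median of 63636 at 162 µg of NRCWE-001 and 70055 at 162 µg of NRCWE-002, beside 34336 in the vehicle mice. Both ranges (33031 to 79122 and 32103 to 73280) overlapped that of the vehicle mice, 28450 to 35425. The neutrophil sum had medians of 25180 and 14195 in the same groups, beside 16660. The part of these cells in the Chil1 signal was not tested on either day.

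The genes whose ratios followed each gene most closely over the 69 arrays were named by Pearson correlation, as a description in which points share slides and group effects. They were Ccl24 (r = 0.75), Tgm1 and Chl1 for Arg1, and Ccl17 (0.76), Ppp1r14d and Cxcl17 for Retnla. For Chil1 they were Hp (0.79), Dad1 and Lrg1, for Chil3 Fbp1 (0.64), Naaa and Ica1l, and for Chil4 Ms4a8a (0.76), Chia1 and F7. From lung signal Lcn2 (0.98), Noxo1 (0.96) and Saa3 (0.93) followed Chil1, Ccl17 (0.83) and Timp1 followed Retnla, and Fbp1 (0.68), Rnase2a and Chia1 followed Chil3. Uck2 (0.74), Ccl24 and Cks1b followed Arg1, and Ms4a8a (0.77), Chia1 and Fbp1 followed Chil4. Over the 14 group means of the ratio the closest were Wfs1, Sfxn1 and Smarcd3 for Arg1, Cxcl17, Ccl17 and Aunip for Retnla, St7, Dad1 and Lyst for Chil1, Klk1, B3gnt7 and Ifne for Chil3, and Sapcd2, C1qtnf9 and Tcf15 for Chil4, with the highest r of each between 0.81 and 0.94.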

How the data were processed

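Whole-lung RNA of 69 mice was hybridised against a reference RNA on 2-colour Agilent whole mouse genome arrays, on 18 slides scanned on 12 days. The deposited scanner files hold the intensity of each spot in both channels, extracted with Agilent Feature Extraction 11.0.1.1 according to the submitters' processing notes. The authors also deposited a table of LOWESS-normalised log2 ratios, which was used as an alternative and correlated with the ratios computed here at 0.987 to 0.995.

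Median spot signals were corrected with normexp (offset 50, the curve fitted without spots whose local background lay over 10 MADs from that of the array) and loess in limma 3.58.1 (R 4.3.3), and lung minus reference log2 ratios were formed. The lung and reference channels alone were also used after Aquantile scaling, a choice made after seeing the data. Probes well above background in the lung channel on at least 4 arrays were kept, and a gene was the median of its probes. Probes were named through their transcript identifiers and RefSeq. A single fit with 14 group means over 69 arrays gave all contrasts and F tests, 2-sided, with Benjamini-Hochberg adjustment over 17628 genes and a threshold of 0.05. The script was tested on simulated data whose noise was independent between arrays. That test does not bear on the correlation of arrays within a slide.

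The 5 members and the gene lists were chosen with earlier results of these data known. Besides the 5 genes, the text names Mrc1, Arg2, Nos2, Il4ra and Il33 (Clec7a had no matched probe), up to 3 called genes per list and dose group, and the 3 closest genes by correlation, of which 1 is not reported here. Each mouse is 1 replicate. Slides hold too few arrays for a value within each, so slide and scan day entered as blocks, in alternative fits only. The main fit had no such term and treated the arrays of a slide as independent. The estimated correlation of arrays within a slide was 0.47 on the ratio scale and 0.45 in the lung channel. Alternatives covered background correction, scaling, the dim-probe filter, single probes, blocks and leaving out each mouse.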

Additional observations from a re-analysis of the deposited data

Results flagged for a closer look

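In 10 of 70 sets of 4 or 5 mice (5 genes in 14 groups, log2 ratio), 1 mouse stood far from the others by Dixon's gap test. Chance marks about 1 group in 20. High mice for Arg1 were replicate 2 at 18 µg of NRCWE-001 on day 1 (2.15), replicate 4 at 162 µg of NRCWE-001 on day 1 (2.84) and replicate 5 at 54 µg of NRCWE-002 on day 28 (1.40). High mice for Chil1 were replicate 1 at 162 µg of NRCWE-001 on day 1 (4.40) and replicate 2 at 162 µg of NRCWE-002 on day 28 (4.86). High mice for Chil3 were replicate 5 at 18 µg of NRCWE-001 (8.95) and replicate 1 at 162 µg of NRCWE-001 (8.11), both on day 28. Replicate 5 at 18 µg of NRCWE-002 on day 1 was low for both Chil3 (4.47) and Chil4 (2.42). Replicate 5 at 162 µg of NRCWE-001 on day 1 was low for Retnla (2.61). The cause was not tested for any of these mice.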

How the results depend on the processing

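Across the alternatives that kept all mice, 314 of 331 values of the 5 genes were scored as unchanged, as were 159 of 215 values of the other named genes. A difference was unchanged if it kept its direction and its side of the threshold. An F test has no direction and was scored by the threshold alone. A count of calls was unchanged if it moved little, as from 3 to 2 or 4 in the lung channel. On the ratio scale the count of calls against single doses was 0 with the deposited log2 ratios, without background correction, with processed signals, with median centring and without the dim-probe filter, and 1 with slide as a fixed block, slide as a random block or scan day as a block. That call was Chil1 at 54 µg of NRCWE-002 on day 1 (0.40, adjusted p = 0.0163; 0.42, adjusted p = 0.0364; 0.42, adjusted p = 0.0235). The dose effect count was 1, again Chil1 with NRCWE-002 on day 1, with slide as a fixed block and with scan day. With median centring 1 gene was called between the particles, Chil1 on day 28 (-0.44, adjusted p = 0.0148). In the lung channel the count of single-dose calls was 2 with median scaling, which lost Chil1 at 54 µg of NRCWE-002 (1.54, adjusted p = 0.178), 4 with slide as a fixed block and 5 with slide as a random block, which added Retnla at 54 µg of NRCWE-002 (3.87, adjusted p = 0.0193) and Chil1 at 54 µg of NRCWE-001 (adjusted p = 0.035). The Retnla dose effect of NRCWE-002 was not called with median scaling or slide as a fixed block (adjusted p = 0.0582 for both). The Csf3r value at 162 µg of NRCWE-001 on day 1 turned to -0.032 with processed signals. The causes were not tested.

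With 1 mouse left out, the counts of calls in ratio were 0 throughout. Those in the lung channel were 3 to 4 against single doses, 2 to 4 for dose effects, and 0 for the particle, day and vehicle contrasts. Chil1 in lung signal was 1.57 to 2.05 at 162 µg of NRCWE-001, 1.68 to 1.82 at 54 µg and 1.70 to 1.93 at 162 µg of NRCWE-002, with adjusted p-values of at most 0.0214. No paired analysis was possible because the labels number the mice from 1 to 69 and no number recurs between groups. Arg1 and Chil4 were well above background in the reference on 23 and 19 of 69 arrays, so their ratios rest on a dim denominator.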
